A study of Mus musculus with 4 samples.

Results

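The voltage-gated sodium channel subunit genes were followed in ribosome-bound and total RNA of the mouse amygdala. They were chosen by name, as the genes whose symbol is Scn, a number, and then a for a pore-forming subunit or b for an auxiliary subunit. The files listed 14 such genes among 23991 symbols, of which 12 are described here. Of these 12, 7 reached 1 FPKM (fragments per kilobase of transcript, scaled to the mapped fragments of a library) in at least 2 of the 4 libraries and were analysed, 4 for pore subunits and 3 for auxiliary subunits. They lay among the 12417 genes of the tables that met this filter.

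The first group was immunoprecipitated RNA (IP) from translating ribosome affinity purification, which recovers RNA on ribosomes that carry a tag. The amygdala came from NpyCre/+;TRAPlox/lox mice, in which cells with a history of Npy-driven Cre carry the tag. Total input RNA from mice of the same genotype was the comparison, with 2 libraries per group and RNA of 3 mice pooled in each. Cells that no longer express Npy may carry the tag, and libraries of Cre-negative mice were not analysed here. The labels give neither age, sex nor treatment of the mice. The limma p-values rest on the spread between 2 pools per group, moderated across all genes tested, and not on a spread between single mice. Npy itself was at 1240 and 1167 FPKM in IP, against 105.4 and 99.2 FPKM in input. Deposited FPKM summed to 423985 and 419349 in IP, against 334759 and 335119 in input, and no read totals are given. The deposited confidence limits of the 7 genes had half-widths of 2.198% to 11.2% of the value, a measure of the counting precision in each library.

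A sodium channel is built around 1 large pore-forming protein that opens on depolarization, carries the rising phase of the action potential and then closes itself with an inactivation gate. Small auxiliary proteins with an immunoglobulin-like domain attach to the pore, change its gating and help to place it in the membrane. In the brain the main pore genes are Scn1a, Scn2a1, Scn3a and Scn8a. Scn1a is known for its part in inhibitory interneurons, Scn2a1 for axons of excitatory neurons, Scn8a for axon initial segments and nodes of Ranvier, and Scn3a for the embryonic brain.

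The pore genes resemble each other in sequence, which bears on how far reads can tell them apart. The longest protein-coding GENCODE M21 transcript of each gene was cut into 100-base windows. Of those of Scn1a, 1.22% occur in a transcript of another gene, as they are or as the reverse complement. The same holds for 1.53% of those of Scn2a1 and 3.65% of those of Scn3a. The genes that share windows with Scn3a include the antisense gene Gm13629, described below. No such window was found for Scn8a, Scn2b, Scn3b or Scn4b. Reads in the shared windows of Scn1a, Scn2a1 and Scn3a cannot be assigned to 1 gene by sequence alone.

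**Figure D1:**
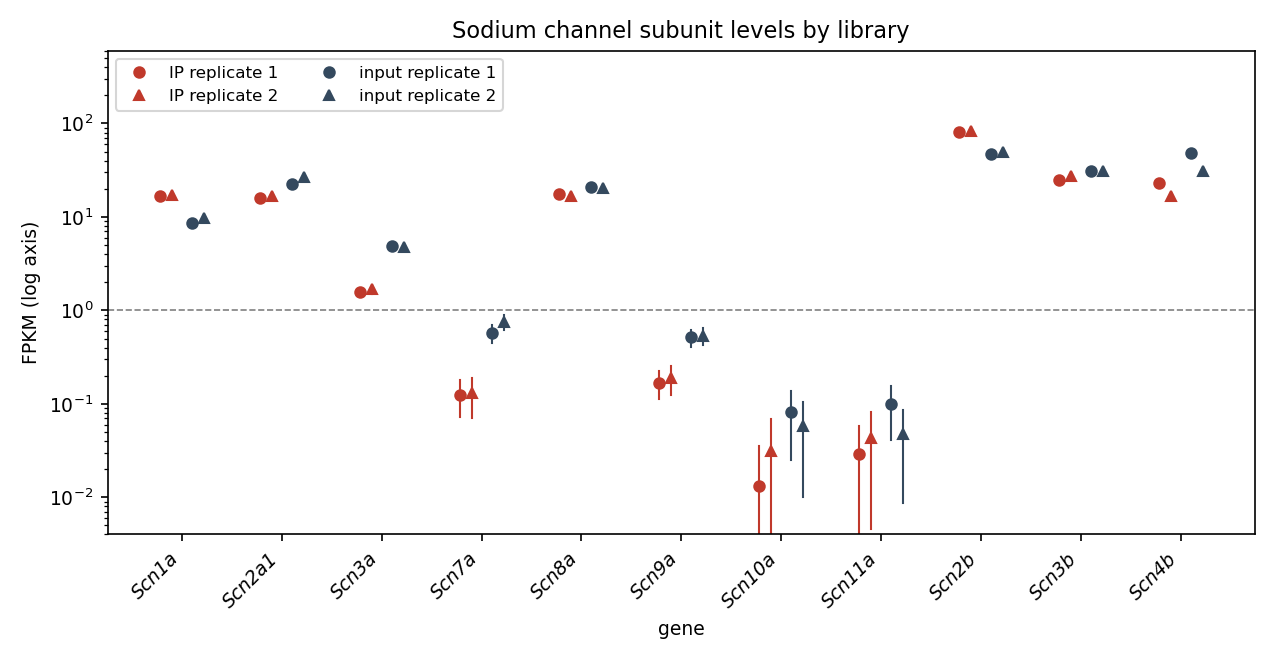
FPKM (log axis) of 11 sodium channel subunit genes in each library, with circles and triangles for replicates 1 and 2, IP in red left of input in dark grey-blue, and bars for the deposited confidence limits. Scn4a, listed at 0 in all 4 libraries, is left out. The dashed line is the filter of 1 FPKM. The IP points of Scn1a and Scn2b lie above their input points and those of the other genes lie below.

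All 7 genes passed an adjusted p of 0.05 in the limma fit across all 12417 genes, where 70.9% of the genes passed. In IP, 2 were higher, where 37.0% of all genes were, and 5 were lower, where 33.9% of all genes were. The higher ones were the pore gene Scn1a and the auxiliary gene Scn2b. The lower ones were the pore genes Scn2a1, Scn3a and Scn8a and the auxiliary genes Scn3b and Scn4b. Both IP values lay on one side of both input values for all 7, as they did for 86.4% of the genes tested, so passing or separating was common in this comparison. The deposited confidence limits of the IP libraries lay apart from those of the input libraries for all 7. The share of all genes for which this held was not computed. Without input replicate 1, 3 of the 5 lower genes passed, as Scn3b and Scn4b then did not. The median log2 change of the 7 genes was -0.27, against 0.03 over all genes tested. In bulk samples such as these, fewer cells of a type and less RNA per cell cannot be told apart.

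Scn1a, a pore gene known for its part in inhibitory interneurons, occupies bases 66270782 to 66440837 of chromosome 2 in mm10. This span includes introns, as do the other positions given. Scn1a was at 16.7 and 17.1 FPKM in IP, against 8.71 and 9.65 FPKM in input. Both IP libraries were high and the groups did not overlap, although the confidence limits of the 2 input pools lay apart from each other. The means were 16.9 ± 0.263 FPKM in IP and 9.18 ± 0.668 FPKM in input (SD, n = 2 each). The log2 change on the log2(FPKM + 1) scale was 0.82 (SE 0.07; limma, adjusted p = 0.000158), and 93.1% of the genes tested had a lower change.

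Scn2a1, whose product supports axonal firing of excitatory neurons, was lower in IP. It is on chromosome 2 from 65670445 to 65767447. It was at 16.01 and 16.8 FPKM in IP, against 22.5 and 26.6 FPKM in input. The groups did not overlap, although the input pools differed from each other by more than their confidence limits. The log2 change was -0.55 (SE 0.09; limma, adjusted p = 0.00175), a call lost with a correction for transcript length (-0.12, adjusted p = 0.2325).

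Scn3a, the pore gene best known from the embryonic brain, showed the largest fall of the 7 on the log2 scale with FPKM as deposited. It is on chromosome 2 from 65457118 to 65567492. It was at 1.56 and 1.68 FPKM in IP, against 4.90 and 4.81 FPKM in input. Mean FPKM was 2.998-fold lower in IP, and the log2 change was -1.16 (SE 0.08; limma, adjusted p = 7.64e-05).

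Scn8a, whose product is concentrated at axon initial segments and nodes, changed least among the 4 tested pore genes with FPKM as deposited, though not after rescaling or with a correction for transcript length. It is on chromosome 15 from 100870645 to 101045938. It was at 17.5 and 16.8 FPKM in IP, against 21.1 and 20.6 FPKM in input. The groups did not overlap, and the log2 change was -0.27 (SE 0.06; limma, adjusted p = 0.00604). This direction turned with a correction for transcript length, as described with the lengths.

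The 5 pore genes below the filter were not tested. Scn7a encodes a relative of the family that responds to sodium concentration rather than to voltage, so the name of the family fits it only in part. It was at 0.125 and 0.130 FPKM in IP, against 0.571 and 0.752 FPKM in input, outside the filter, and Scn3a, at 1.56 FPKM or more in all 4 libraries, was the lowest gene inside it. Scn9a, a gene of peripheral sensory and sympathetic neurons, was at 0.169 and 0.189 FPKM in IP, against 0.514 and 0.536 FPKM in input. Scn10a and Scn11a, both of sensory neurons, were at 0.0131 to 0.0433 FPKM in IP, against 0.0476 to 0.0986 FPKM in input, with wide confidence limits that overlapped between the groups. Scn4a, the skeletal muscle pore gene, was listed at 0 in all 4 libraries. The skeletal muscle markers summed to 10.7 and 8.77 FPKM in IP, against 8.87 and 7.725 FPKM in input, nearly all of it Acta1. The 4 sensory neuron markers summed to 1.48 and 1.68 FPKM in IP, against 1.85 and 2.37 FPKM in input. Of these 4, only Mrgprd was listed at 0 throughout.

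A share within a library does not depend on how libraries are scaled to each other, so the pore genes were also set against their own sum. Scn1a made up 32.3% and 32.6% of the summed FPKM of the 4 pore genes in IP, against 15.2% and 15.7% in input. Its share was 2.10-fold higher in IP, while the sum of the 4 genes was 51.7 and 52.4 FPKM in IP, against 57.2 and 61.7 FPKM in input. Scn2a1 held 30.9% and 32.02% in IP, against 39.3% and 43.1% in input, and Scn3a held 3.01% and 3.22% in IP, against 8.57% and 7.81% in input. Scn8a held 33.7% and 32.1% in IP, against 36.9% and 33.4% in input, so its groups overlapped. With 2 libraries against 2, the exact two-sided permutation test cannot go below p = 0.333, which every pore share but that of Scn8a (p = 0.667) reached.

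**Figure D2:**
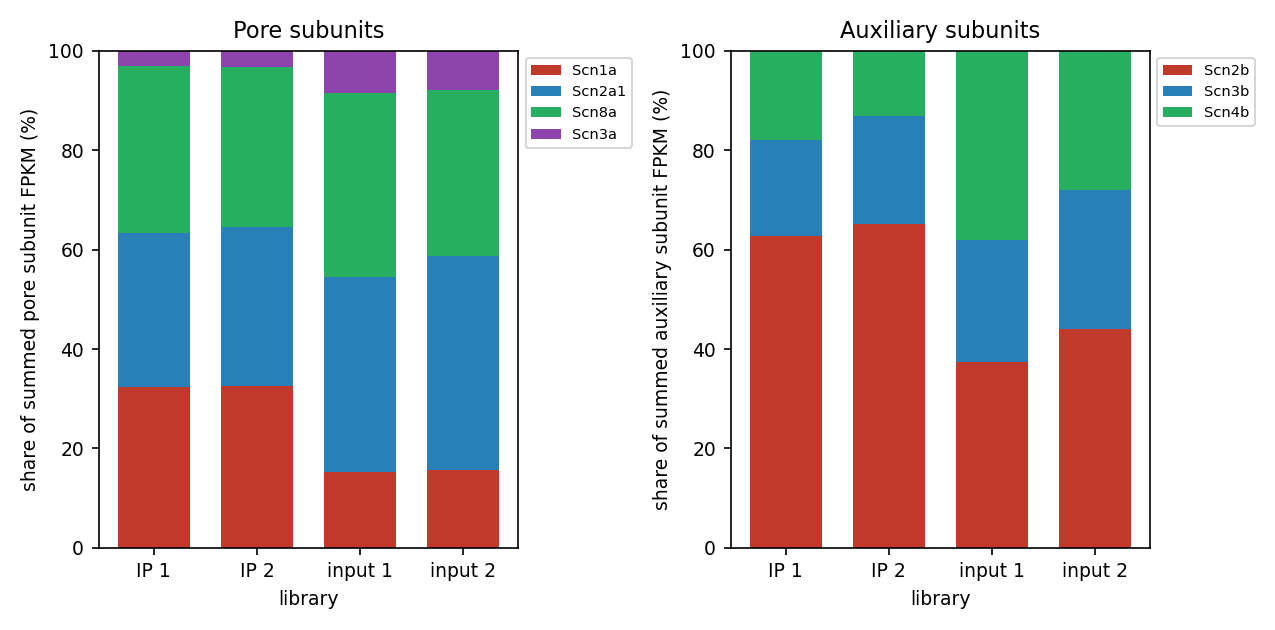
Share of each gene in the summed FPKM of the 4 pore genes described (left) and of the 3 auxiliary genes described (right), in % and stacked to 100, for the 2 IP libraries and then the 2 input libraries. The Scn1a block is 32.3% and 32.6% high in IP and 15.2% and 15.7% in input, and the Scn4b block is smaller in both IP libraries.

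The order of the pore genes differed with these shares. In both IP libraries Scn1a, Scn2a1 and Scn8a lay between 16.01 and 17.5 FPKM. The confidence limits of neighbours in this order overlapped, but those of Scn2a1 and Scn8a did not in IP replicate 1. In both input libraries Scn2a1 and Scn8a stood at 20.6 to 26.6 FPKM, and Scn1a stood below 10 FPKM. The ratio of Scn1a to Scn2a1 was 1.04 and 1.02 in IP, against 0.387 and 0.363 in input, a spread between replicates far smaller than the distance between the groups. The ratio of Scn1a to Scn8a was 0.957 and 1.01 in IP, against 0.412 and 0.468 in input. The ratio of Scn1a to Scn3a was 10.7 and 10.1 in IP, against 1.78 and 2.00 in input, a 5.52-fold difference and the largest of the 6 pair ratios computed. Each of these 3 ratios reached the smallest exact permutation p that the design allows (p = 0.333, two-sided, n = 2 each).

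The auxiliary proteins differ in how they attach: that of Scn3b binds the pore without a covalent bond, and those of Scn2b and Scn4b through a disulfide bond. Of the 3 genes, Scn2b was higher and Scn3b and Scn4b were lower in IP. Scn3b is on chromosome 9 from 40269216 to 40291618. It was at 24.7 and 27.3 FPKM in IP, against 31.3 and 30.9 FPKM in input. The groups did not overlap, with a small log2 change of -0.25 (SE 0.06; limma, adjusted p = 0.0135). It did not pass once IP replicate 1 (adjusted p = 0.0554), the first input library (adjusted p = 0.0872) or the second (adjusted p = 0.0754) was left out.

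Scn2b is on chromosome 9 from 45117876 to 45130070. It was at 80.3 and 82.3 FPKM in IP, against 47.4 and 49.0 FPKM in input. Replicates of each group lay close together, and the log2 change of 0.74 (SE 0.05; limma, adjusted p = 6.07e-05) had the smallest SE of the 7.

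Scn4b, whose product carries a tail that can block the open pore and which is abundant in the striatum, starts 8971 bases beyond the end of Scn2b, on chromosome 9 from 45139042 to 45154061. It was at 23.1 and 16.6 FPKM in IP, against 48.2 and 31.2 FPKM in input. The groups did not overlap, but the pools differed from each other in both, and replicate 1 was the higher one in each group. Mean FPKM was 19.8 ± 4.54 in IP and 39.7 ± 12.02 in input (SD, n = 2 each), a log2 change of -0.95 (SE 0.22; limma, adjusted p = 0.00901). The log2 change was -0.65 without input replicate 1 and the call was then lost (adjusted p = 0.0695).

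A list of 8 striatal projection neuron markers was added after the values of Scn4b were seen. Like Scn4b, all 8 were higher in input replicate 1 than in input replicate 2. The share of all genes for which this held was not computed. Input replicate 1 was 1.22-fold to 1.525-fold above input replicate 2 for these markers and 1.54-fold for Scn4b. IP replicate 1 was 0.955-fold to 1.36-fold of IP replicate 2 for the markers and 1.39-fold for Scn4b. Penk was the marker that was lower in IP replicate 1. The other 6 sodium channel genes had ratios of 0.846 to 1.025 between the input pools and 0.904 to 1.04 between the IP pools. Of the 8 markers, 2 were higher and 4 lower in IP, where 37.0% and 33.9% of all genes were. After rescaling 0 were higher and 5 lower, where 17.9% and 53.8% of all genes were. With quantile normalization 0 were higher and 5 lower, where 35.3% and 30.2% of all genes were. With the correction for length 0 were higher and 3 lower, where 34.0% and 31.7% of all genes were. The 8 markers summed to 467 and 437 FPKM in IP, against 650 and 493 FPKM in input, with none listed at 0. Their part in the change of Scn4b was not tested.

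Scn2b, Scn3b and Scn4b together summed to 128.0 and 126.3 FPKM in IP, against 126.9 and 111.2 FPKM in input, and the groups overlapped (exact permutation p = 0.667, two-sided, n = 2 each). Within this sum, Scn2b held 62.7% and 65.2% in IP, against 37.3% and 44.1% in input. Scn3b held 19.3% and 21.6% in IP, against 24.7% and 27.8% in input, and Scn4b held 18.0% and 13.2% in IP, against 38.0% and 28.1% in input. None of these shares overlapped between the groups. The ratio of Scn2b to its neighbour Scn4b was 3.48 and 4.95 in IP, against 0.982 and 1.57 in input, 3.30-fold higher in IP (exact permutation p = 0.333, two-sided, the smallest possible).

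Marker lists of other cell types moved with the groups as well, where 37.0% of all genes tested were higher and 33.9% lower in IP. All 6 GABAergic markers were higher in IP, with summed levels of 1124 and 1236 FPKM in IP, against 283 and 287 FPKM in input. The 4 genes listed as markers of fast-spiking neurons, Pvalb, Kcnc1, Tac1 and Lhx6, were all higher too. They summed to 602 and 538 FPKM in IP, against 104.0 and 95.4 FPKM in input. Of 5 glutamatergic markers 3 were lower and 0 higher, at 222.5 and 144.7 FPKM in IP, against 352 and 363 FPKM in input. All 5 astrocyte markers were lower, at 25.8 and 30.8 FPKM in IP, against 151 and 167 FPKM in input, and so were all 5 oligodendrocyte markers, at 79.1 and 88.8 FPKM in IP, against 377 and 346 FPKM in input. None of these 25 markers was listed at 0, these counts were the same after rescaling, and their part in the changes of the sodium channel genes was not tested.

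Transcript length moved with the changes. The 4 tested pore genes have long transcripts, from 8386 bases for Scn1a to 11436 bases for Scn8a, and the 3 tested auxiliary genes shorter ones, from 4150 bases for Scn3b to 4982 bases for Scn4b. Over all genes tested, the median log2 change was 0.35 for the 3031 genes with transcripts under 2000 bases and -0.50 for the 734 genes with transcripts of 8000 bases or more, of which 71.8% were lower and 9.95% higher in IP. Among those 734 genes, 3 had a larger change than Scn1a, 224 had a larger change than Scn8a, 395 than Scn2a1 and 659 than Scn3a. The fall of Scn2a1 was thus near the middle of the changes of genes of that length.

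**Figure D3:**
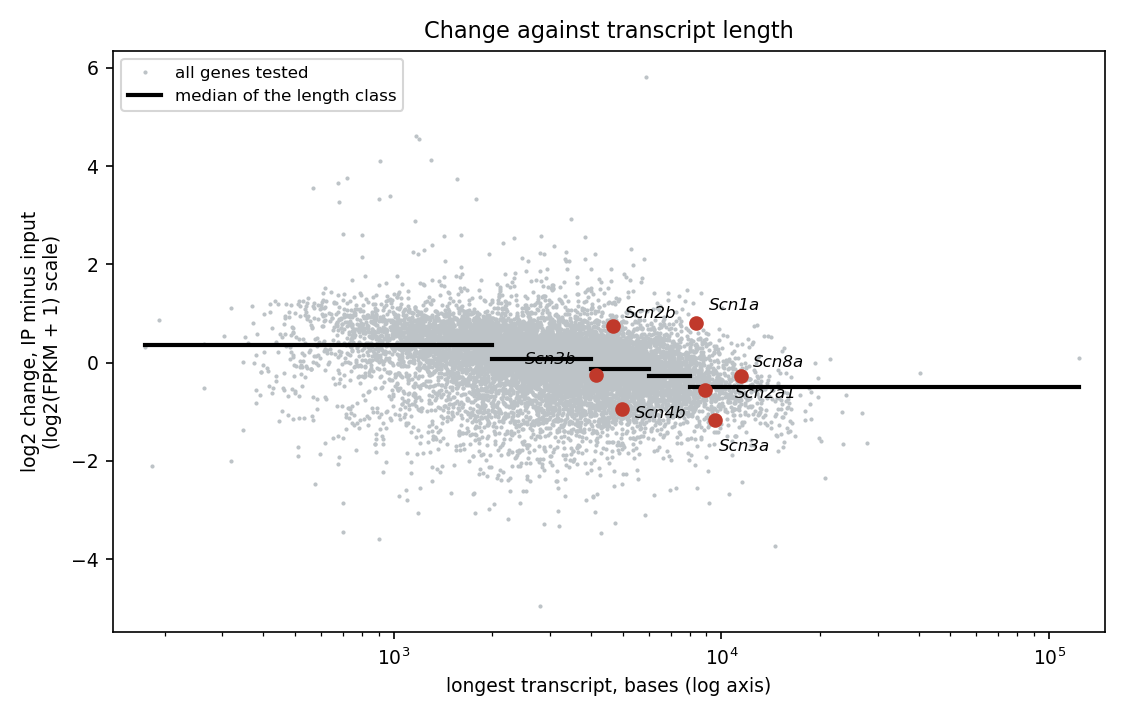
Log2 change, IP minus input, on the log2(FPKM + 1) scale, against the length of the longest transcript (bases, log axis) for all genes tested (grey) and the 7 sodium channel genes (red), with the median of each length class as a black line. The lines step down with length, and Scn1a lies well above the line for 8000 bases or more, at 0.82 against -0.50.

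With the log2 values corrected for transcript length, 4 of the 7 genes kept their call and direction, where 34.0% of all genes were higher and 31.7% lower. Scn1a rose by 1.21 and Scn2b by 0.87, and Scn3a and Scn4b fell by 0.70 and 0.80 on the log2 scale. The change of Scn8a was 0.29 with this correction (limma, adjusted p = 0.00577), the opposite direction. Scn2a1 and Scn3b did not pass, with log2 changes of -0.12 and -0.17 (limma, adjusted p = 0.2325 and 0.0753).

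Scaling between libraries moved the sizes. With each library rescaled to the same sum, the median log2 change of all genes was -0.29 in place of 0.03, and 17.9% of the genes were called higher and 53.8% lower in IP. All 7 sodium channel genes kept their call and direction, as they did with quantile normalization, where 35.3% of all genes were higher and 30.2% lower. The log2 change of Scn1a was 0.53 after rescaling, which is 0.82 above the median of all genes, and that of Scn3a was -1.69, which is 1.40 below it. Scn8a and Scn3b, at -0.61 and -0.59, lay 0.32 and 0.30 below the median of all genes.

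**Figure D4:**
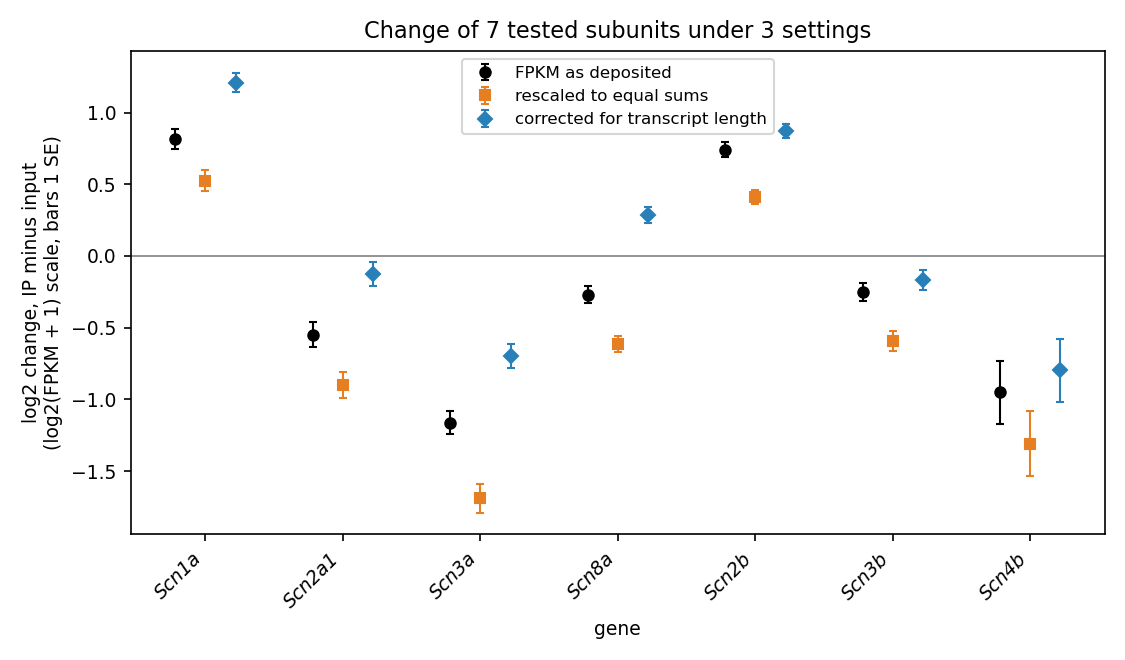
Log2 change, IP minus input (log2(FPKM + 1) scale, bars 1 SE), of the 7 tested genes with FPKM as deposited (circles), after rescaling to equal sums (squares) and with a correction for transcript length (diamonds). Scn1a and Scn2b are above 0 in all 3 settings, Scn3a and Scn4b are below it, and Scn8a is at -0.27, -0.61 and 0.29.

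Of the genes described, 5 of the 12 lie in a cluster on chromosome 2 between 65457118 and 66784910, and 5 lie on chromosome 9. Members of the same cluster moved in opposite directions, and the sequence before the start of 3 of them is shown here because of what lies beside them. GENCODE places the non-coding gene Gm13629, annotated as antisense, 42 bases from the end of Scn1a given in the files, on the other strand and reading away from it (66440880 to 66546026). Gm13629, singled out after its values were seen, was at 7.18 and 7.51 FPKM in IP, against 2.42 and 2.21 FPKM in input, a log2 change of 1.33 (SE 0.08; limma, adjusted p = 4.9e-05). Both genes of this head-to-head pair were therefore higher in IP without overlap between the groups. Gm13629 shares no exonic base with Scn1a but 180 with Scn9a on the opposite strand, and the labels do not say whether reads were counted by strand. The 250 bases before the RefSeq start of Scn1a (chr2:66440838-66441087, minus strand, GRCm38) follow, with the 208 bases that lie in the first exon of Gm13629 in capitals.
Scn1a: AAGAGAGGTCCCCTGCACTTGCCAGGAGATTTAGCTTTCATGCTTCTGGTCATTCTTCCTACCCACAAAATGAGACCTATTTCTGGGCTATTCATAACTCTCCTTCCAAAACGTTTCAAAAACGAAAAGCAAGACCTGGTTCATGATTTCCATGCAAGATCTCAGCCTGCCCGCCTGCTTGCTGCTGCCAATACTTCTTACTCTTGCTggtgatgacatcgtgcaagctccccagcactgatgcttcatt

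Scn2b and Scn4b are neighbours read from the same strand, and moved in opposite directions. The 250 bases before their RefSeq starts (GRCm38, plus strand, chr9:45117626-45117875 for Scn2b and chr9:45138374-45138623 for Scn4b) are shown with each CG dinucleotide in capitals. The RefSeq start of Scn4b lies before the start that the files give, 45139042, so this window is not next to the gene as the files place it.
Scn2b: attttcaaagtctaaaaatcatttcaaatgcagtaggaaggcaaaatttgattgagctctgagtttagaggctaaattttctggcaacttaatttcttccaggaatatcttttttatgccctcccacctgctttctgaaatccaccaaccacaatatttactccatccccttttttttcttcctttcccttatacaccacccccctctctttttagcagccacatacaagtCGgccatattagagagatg
Scn4b: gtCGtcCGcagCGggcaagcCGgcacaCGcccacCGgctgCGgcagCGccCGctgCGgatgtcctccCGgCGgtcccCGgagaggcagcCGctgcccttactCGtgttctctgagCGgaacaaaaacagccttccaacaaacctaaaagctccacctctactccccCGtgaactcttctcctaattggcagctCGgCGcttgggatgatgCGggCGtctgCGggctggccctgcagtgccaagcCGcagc
The Scn2b window holds 1 CG dinucleotide and is 38.4% G or C, and the Scn4b window holds 23 and is 66.0% G or C. Of 32851 such windows in RefSeq, 92.1% hold at least as many CG dinucleotides as that of Scn2b and 13.3% at least as many as that of Scn4b. These are descriptions of the letters. Of the 7 tested genes, 5 had a window in the RefSeq table used.

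Proteins that act with sodium channels were described from 6 lists of 50 genes, 46 of them tested. In IP 12 of the 46 were higher and 20 lower, where 37.0% and 33.9% of all genes were. After rescaling 5 were higher and 34 lower, where 17.9% and 53.8% of all genes were. With the correction for length the balance turned, with 14 higher and 9 lower, where 34.0% and 31.7% of all genes were. The FGF homologous factors bind the inner tail of the pore protein and shift its inactivation. Of 4 tested, 2 were higher and 2 did not pass, with a median log2 change of 0.44. Fgf12 was at 89.55 and 91.5 FPKM in IP, against 49.95 and 49.15 FPKM in input, a log2 change of 0.86, and Fgf11 was at 27.004 and 28.7 FPKM in IP, against 14.95 and 15.6 FPKM in input, a change of 0.83. Groups did not overlap for either gene. After rescaling both were still higher, and the 2 genes that did not pass were then lower.

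Most genes of the axon initial segment and node list were lower with FPKM as deposited. Of 12 tested, 2 were higher, 9 lower and 1 did not pass, where 37.0% of all genes were higher and 33.9% lower. The median log2 change of the list was -0.41. Transcripts of Ank2, Ank3, Sptan1, Sptbn1, Sptbn4, Nfasc and Cntnap2 have 8000 bases or more. Of all genes of that length, 71.8% were lower and 9.95% higher. The spectrin genes Sptbn1 and Sptan1 fell by 1.04 and 0.60 on the log2 scale, and the ankyrin gene Ank2 by 0.73. Ank3, whose product ankyrin-G clusters sodium channels at the initial segment and which was singled out after its values were seen, fell to 9.87 and 9.38 FPKM in IP, against 14.1 and 14.6 FPKM in input. With the correction for length, 2 of the 12 were lower and 2 higher, where 31.7% and 34.0% of all genes were. Sptbn1 and Sptan1 then fell by 0.60 and 0.23, and neither Ank2 (log2 change -0.06, adjusted p = 0.395) nor Ank3 (log2 change -0.05, adjusted p = 0.519) passed. Cntnap2, a gene of the juxtaparanode, rose to 21.7 and 25.9 FPKM in IP, against 13.6 and 15.1 FPKM in input, and its log2 change was 0.68, or 1.16 with the correction for length. Cntnap1, a gene of the paranode, changed by 0.20, with -0.13 after rescaling, -0.01 with quantile normalization and 0.39 with the correction for length. It did not pass without IP replicate 1 (adjusted p = 0.0695), IP replicate 2 (adjusted p = 0.0558) or the first input library (adjusted p = 0.108).

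The list of channel binding, trafficking and turnover genes was mixed. Of 12 tested, 6 were higher, 5 lower and 1 did not pass, where 37.0% of all genes were higher and 33.9% lower. After rescaling 1 was higher and 7 lower, where 17.9% and 53.8% of all genes were. Rangrf, whose product aids the surface expression of sodium channels, was at 11.7 and 12.02 FPKM in IP, against 5.695 and 5.81 FPKM in input, the largest rise of the list with FPKM as deposited at 0.93 on the log2 scale. With the correction for length its change was 0.44, below Bace1 at 0.56 and Dpysl2 at 0.45, which were named after their values were seen. The calmodulin genes Calm3 and Calm2 changed by 0.42 and 0.35, and by -0.18 and -0.28 with quantile normalization, while Calm2 was at -0.04 with the correction for length. Camk2d, a kinase gene, fell by 0.95, Nedd4l, a ubiquitin ligase gene, by 0.59 and S100a10, whose product binds a sensory neuron pore protein, by 0.33 on the log2 scale. With the correction for length Nedd4l fell by 0.23 and S100a10 by 0.86. S100a10 no longer passed when the first (adjusted p = 0.0901) or the second input library (adjusted p = 0.0648) was left out.

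Among 7 splicing regulators 1 was higher, 1 lower and 5 did not pass, where 37.0% of all genes were higher and 33.9% lower. After rescaling 0 were higher and 6 lower, where 17.9% and 53.8% of all genes were. With the correction for length 3 were higher and 1 lower, where 34.0% and 31.7% of all genes were. Nova2 changed by 0.24, with -0.09 after rescaling and 0.63 with the correction for length, and did not pass when IP replicate 1 (adjusted p = 0.0574) or the first input library (adjusted p = 0.0864) was left out, and Mbnl2 fell by 0.29 on the log2 scale, or by 0.17 with that correction. Of 8 other sodium channel genes 4 were lower, 0 higher and 4 did not pass, where 33.9% of all genes were lower and 37.0% higher. After rescaling 7 were lower, where 53.8% of all genes were, and with quantile normalization 2 were lower. With the correction for length 1 was higher and 1 lower. Scnn1a, 1 of the 4 lower with FPKM as deposited, lay near the filter. It was at 0.828 and 0.801 FPKM in IP, against 1.08 and 1.33 FPKM in input. It thus met the filter through input alone, and its log2 change was 0.25 with quantile normalization. Unc79 and Unc80, whose products belong to the sodium leak channel complex, fell by 0.61 and 0.53 on the log2 scale. With the correction for length their changes were -0.19 and 0.12, and neither passed (limma, adjusted p = 0.106 and 0.099). Asic4, of the acid-sensing family, fell by 0.33 on the log2 scale, and did not pass when the first input library was left out (adjusted p = 0.0842) or with quantile normalization (adjusted p = 0.0743).

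The sodium pump restores the gradient that the channels use. Of 3 subunit genes of the pump described here 1 was higher, 1 lower and 1 did not pass. Of all genes, 37.0% were higher and 33.9% lower. Atp1b1, the main beta subunit gene of neurons, was at 654 and 680 FPKM in IP, against 339 and 367 FPKM in input, a log2 change of 0.92. Atp1b2, the beta subunit gene of astrocytes, fell by 0.99 on the log2 scale, to 43.4 and 50.9 FPKM in IP, against 90.0 and 98.5 FPKM in input. The 5 astrocyte markers fell as well, and their part in the change of Atp1b2 was not tested.

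**Figure D5:**
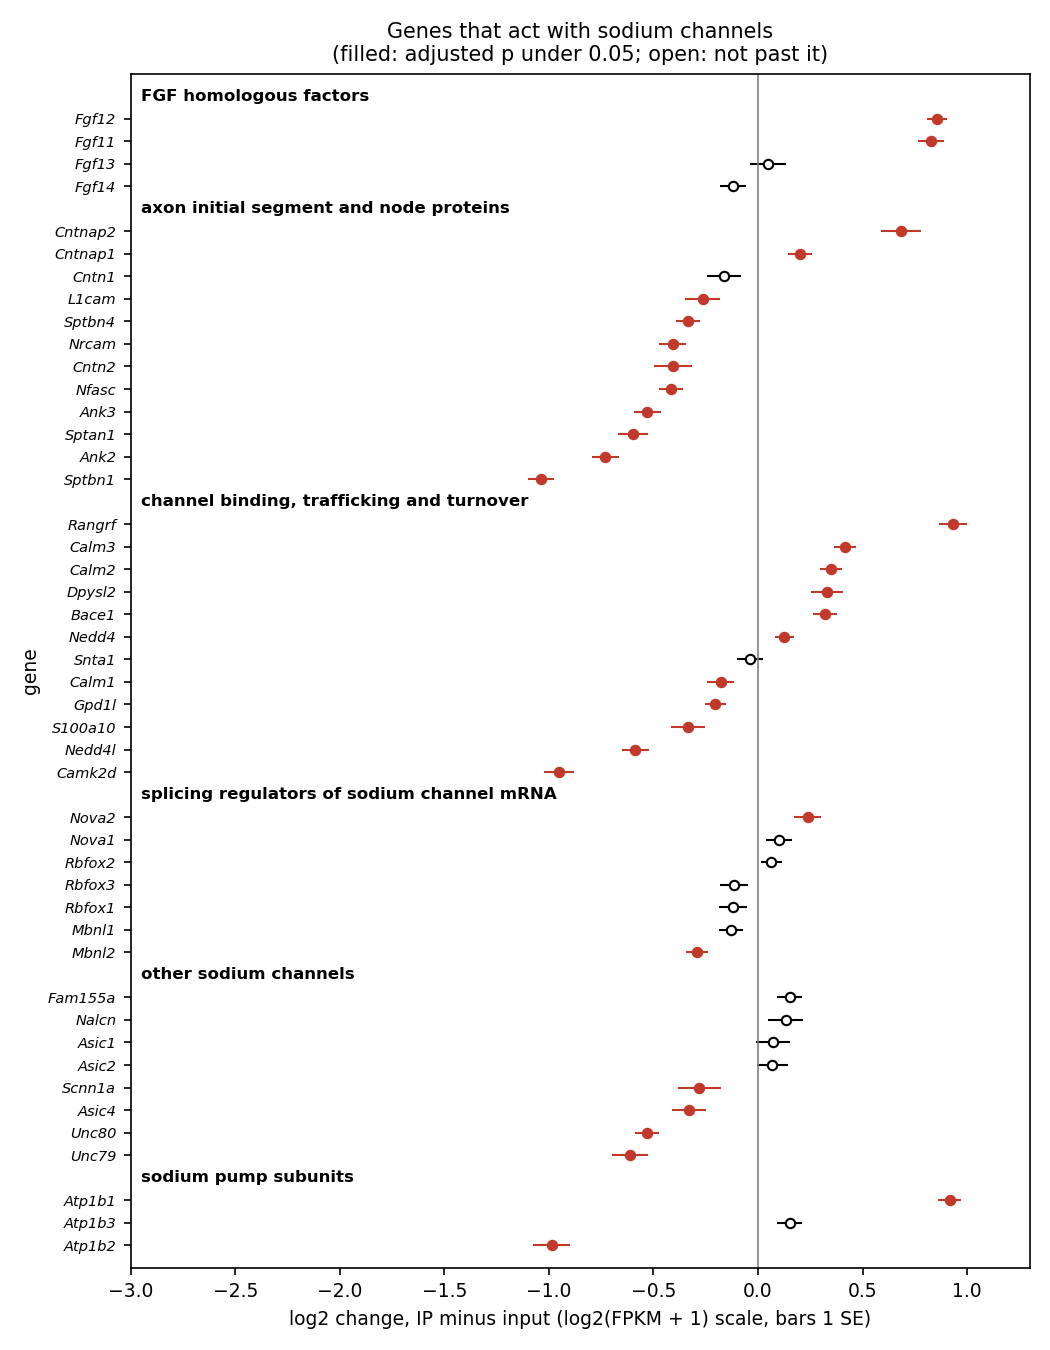
Log2 change, IP minus input (log2(FPKM + 1) scale, bars 1 SE), of the 46 tested genes of 6 lists, ordered by change within each list. Filled red points passed an adjusted p of 0.05 (limma) and open points did not. The lowest point is Sptbn1 at -1.04, and the highest is Rangrf at 0.93, with FPKM as deposited.

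Of all genes tested, the 3 whose 4 centred log2 values lay nearest to those of Scn1a were Pcsk1n (Euclidean distance 0.017), Serpini1 (0.024) and Ranbp1 (0.032). Over 4 libraries in 2 groups such likeness is common, and 758 genes lay within a distance of 0.2. Pcsk1n was at 149 and 151 FPKM in IP, against 81.9 and 88.7 FPKM in input. The nearest to Scn3a were Igsf9b (0.031), Tspan14 (0.032) and Gsta4 (0.036), with 335 genes within a distance of 0.2. Igsf9b, which met the filter through input alone, was at 0.383 and 0.435 FPKM in IP, against 2.25 and 2.17 FPKM in input. Gsta4 was at 21.05 and 22.73 FPKM in IP, against 49.86 and 48.75 FPKM in input. With 1 added to FPKM before the log, likeness on this scale is not likeness in fold change.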

How the data were processed

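Per the file headers, the deposited tables hold FPKM for each gene from Cufflinks, with its limits and status. Per the series' design text, 200 ng of RNA per library was sequenced as 100 bp single-end reads, and reads were aligned with TopHat to mm10 with the iGenomes UCSC annotation. FastQC, TopHat, Cufflinks and Cuffdiff are named in the submitters' processing notes, without versions. The labels state neither the use of strand nor any scaling between libraries, and the read depth behind the values is unknown.

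Of 24490 entries per library, 8 with a failed status and 1275 with small RNA names were left out, and the highest entry per symbol was kept. The 12417 genes at 1 FPKM or more in 2 or more libraries were tested as log2(FPKM + 1) with limma 3.58.1 (R 4.3.3, lmFit and eBayes with trend, two-sided, Benjamini-Hochberg over all genes tested). Fold changes of low genes are understated by the added 1. No count test was used. The fit was tested on simulated data. A lowess on log2 transcript length, known for 99.3% of the genes, gave the length correction. Coordinates were written 1-based. Python 3.11.15 drew the figures.

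Groups and numbers came from the sample titles (a second label calls IP replicate 2 replicate 1). The design text names a corresponding input for each IP without saying that shared numbers mark shared mice, and deviations of same-numbered libraries correlated at 0.161. The fit had no replicate block. Of replicate pairs at FPKM of at least 5, 0 values were identical. Members were fixed by symbol. Partner genes named were the up to 3 largest rises and falls past the threshold in each list. Members and lists were chosen with earlier results of these data known. Some genes of the family and of the lists are not reported here, and sums, shares and list counts leave them out, so no ratio of auxiliary to pore sums is given. This was decided after the values were seen. Proteins were not analysed here.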

Additional observations from a re-analysis of the deposited data

How the results depend on the processing

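Under the pseudocounts 0.1 and 5, rescaling, size factors, quantile normalization, eBayes without trend, summed entries and the replicate block, all 7 sodium channel genes kept their call and direction. With the replicate block the log2 changes were identical, for example 0.82 for Scn1a (limma, adjusted p = 2.2e-05), and it changed no call among the named genes. For Scn4b the block took the SE from 0.22 to 0.07 (limma, adjusted p = 7.1e-06). A filter at FPKM of 5 removed Scn3a. Without the filter on FPKM, 2 members were lower and the calls of Scn2a1 (-0.55, adjusted p = 0.0523), Scn3b (-0.25, adjusted p = 0.08315) and Scn4b (-0.95, adjusted p = 0.15) were lost, with 7 partner genes higher. With the robust option that of Scn4b was lost (-0.95, adjusted p = 0.0617). With quantile normalization 6 partner genes were higher, with Cntnap1 at -0.0109, Calm3 at -0.18 and Calm2 at -0.28. With the length correction 2 members were lower, Scn2a1 was at -0.12, Scn3b at -0.17, Scn8a at 0.29, Calm2 at -0.0398 and Unc80 at 0.12, and 14 partner genes were higher and 9 lower, against 12 and 20 without it. After rescaling 5 partner genes were higher and 34 lower, with Cntnap1 at -0.13 and Nova2 at -0.0896. With 1 library left out, log2 changes ran from -0.32 to -0.18 for Scn3b and from -1.26 to -0.65 for Scn4b, and 3 to 5 members were lower. With FPKM times transcript length, as a share of reads, the IP minus input difference in the pore share of Scn1a was 15.1 percentage points, against 17.0 per length. The cause of these moves was not tested. Low FPKM limits the 5 pore genes below the filter.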
